A study of Mus musculus with 22 samples.

Results

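Urea transport and arginine metabolism were followed in mouse embryonic fibroblasts (MEFs, primary connective tissue cells grown from embryos) through 8 genes: the urea transporters Slc14a1 and Slc14a2, the arginases Arg1 and Arg2, the arginine-forming enzymes Ass1 and Asl, ornithine decarboxylase Odc1 and the inducible nitric oxide synthase Nos2. All probe sets that the platform annotation assigned to exactly 1 gene, that gene being one of the 8, were taken. They numbered 13, of 34945 probe sets and 18193 genes on the arrays that could be named this way, and 1 more probe set that listed Ass1 together with another gene was left out. Slc14a1 was chosen by its higher level in oncogene than in control cells on these same arrays, so its values are given as a description with no test. The other 7 genes were added for their place in the pathway.

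RNA was hybridised to Affymetrix whole-genome mouse arrays 7 days after infection with an adenovirus, and 22 arrays were used. The 5 control arrays came from MEFs labelled wild type and given a virus with GFP, a fluorescent protein. The 5 oncogene arrays came from MEFs with a silent mutant oncogene allele that Cre recombinase, carried by the virus, switches on. The 5 Wt1-null arrays came from Wt1f/f MEFs, in which Cre deletes Wt1, the gene of a zinc finger transcription factor. The 7 double arrays came from MEFs in which Cre was given to do both. Every oncogene, Wt1-null and double array had received Cre and every control array GFP, so a comparison with the control is also a comparison of viruses. Neither the share of cells that recombined, the embryonic age nor the source of the replicates (separate embryos or cultures) is given in the sources used here, so p-values measure only the spread between these arrays, which may be technical. The design asks what the oncogene and the loss of Wt1 do to the transcriptome, alone and together.

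Urea crosses membranes slowly unless a channel carries it. Slc14a1 encodes UT-B, the urea channel of red blood cells, the descending vasa recta of the kidney and several other tissues, and Slc14a2 encodes UT-A, whose isoforms return urea to the renal medulla. Urea itself is made when an arginase splits arginine into urea and ornithine. Ass1 and Asl rebuild arginine from citrulline and aspartate, Odc1 turns ornithine into putrescine, the first polyamine, and nitric oxide synthases draw on the same arginine and return citrulline. Fibroblasts lack a complete urea cycle, which belongs to the liver, but use arginine for polyamines, proline and protein.

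The values are log2 levels normalized by RMA, so a difference of 1 is a doubling, and each level belongs to its own probe set and is not comparable between probe sets. To give a floor, the Y-linked genes Kdm5d and Eif2s3y read 3.65 to 4.22 in 9 arrays where Xist, transcribed from the inactive X, was high. Those 9 arrays were 2 control, 0 oncogene, 2 Wt1-null and 5 double arrays. The share of arrays with high Xist, and so of female cells, thus differed between the groups compared, and its part in the differences was not tested. For Wt1 itself, control arrays averaged 4.38 ± 0.10 (SD, n = 5), oncogene arrays 4.59 ± 0.06 (SD, n = 5), Wt1-null arrays 4.47 ± 0.15 (SD, n = 5) and double arrays 4.45 ± 0.19 (SD, n = 7), all near that floor, so its probe set did not check the labels. Fibroblast markers (Col1a1, Col1a2, Col3a1, Vim, Pdgfrb, Thy1 and Fn1) averaged 13.34 to 14.24 over the arrays. Wt1-null replicate 2 was nearly identical to double replicate 2 (correlation 0.998 over all probe sets, SD of their difference 0.152), and differences that rest on Wt1-null arrays are therefore also given without it. A second close pair, Wt1-null replicates 3 and 4 (correlation 0.998, SD 0.162), carried one label and was kept as 2 arrays. The arrays least like the rest were oncogene replicate 4 and double replicate 4, with mean correlations of 0.963 and 0.940.

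The urea channel gene Slc14a1 read higher in every oncogene array and nearly every double array than in control arrays and in all Wt1-null arrays but replicate 2. On probe set 1428114_at its log2 level was 5.49, 5.71, 8.91, 8.47 and 9.60 in control replicates 1 to 5 (7.64 ± 1.90, SD, n = 5). It was 12.75, 12.56, 12.63, 11.96 and 12.28 in oncogene replicates 1, 3, 4, 5 and 6 (12.43 ± 0.32, SD, n = 5). The oncogene arrays lay close together and above every control array, whereas the controls fell into a pair of low arrays and 3 intermediate ones.

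Among the cells without Wt1, Slc14a1 on 1428114_at read 7.45, 12.57, 7.72, 7.79 and 6.24 in Wt1-null replicates 1 to 5. The double arrays ran from 10.06 to 12.80 with a median of 12.68 (12.10 ± 1.0, SD, n = 7). Wt1-null replicate 2 alone stood in the range of the double arrays, and the other 4 Wt1-null arrays averaged 7.30 ± 0.72 (SD, n = 4), inside the range of the controls. The lowest double array, replicate 4, was one of the arrays least like the rest, and it still lay above every control array.

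**Figure D1:**
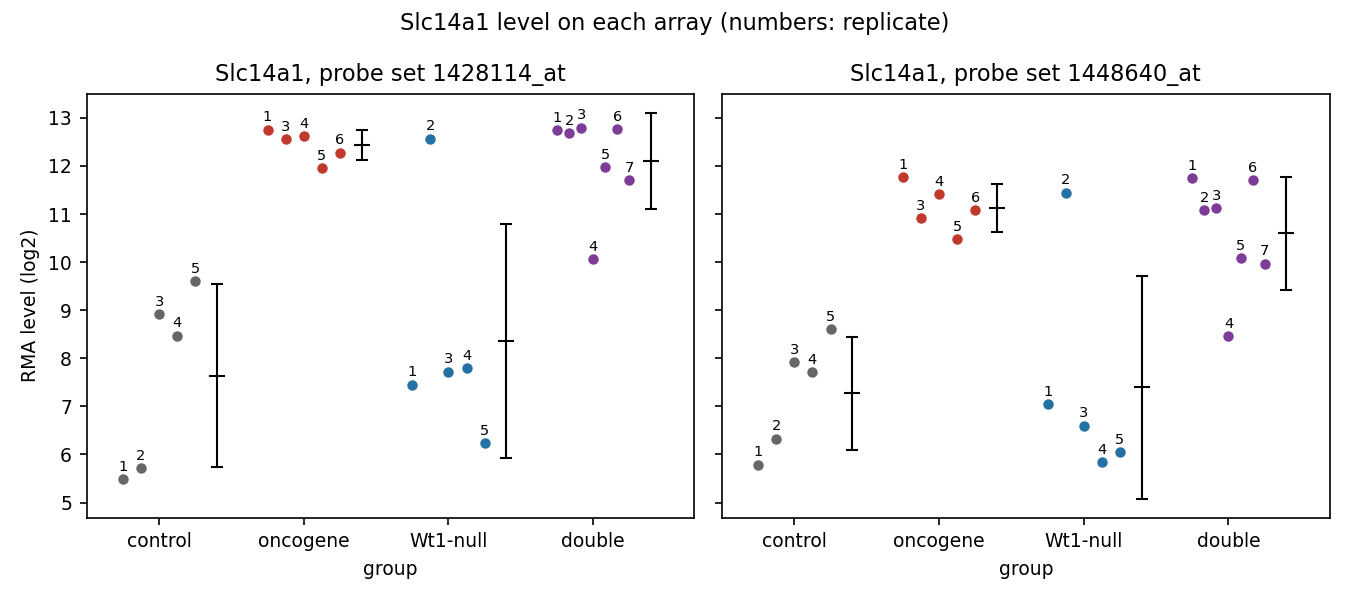
Log2 RMA level of Slc14a1 on each array (y axis) by group (x axis), for probe set 1428114_at on the left and 1448640_at on the right; numbers are replicates and the bars beside the points show mean and SD. The oncogene arrays sit between 11.96 and 12.75 on the left and between 10.47 and 11.76 on the right, above every control array, and Wt1-null replicate 2 sits apart from its group at 12.57 and 11.45.

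The second probe set, 1448640_at, gave the same order of arrays in outline. Slc14a1 read 5.79, 6.33, 7.92, 7.71 and 8.60 in control replicates 1 to 5 and 11.76, 10.91, 11.41, 10.47 and 11.08 in oncogene replicates 1, 3, 4, 5 and 6. It read 7.05, 11.45, 6.60, 5.84 and 6.05 in Wt1-null replicates 1 to 5 and ran from 8.47 over a median of 11.08 to 11.74 in double arrays. As on the other probe set, no oncogene array overlapped a control array. Double replicate 4, at 8.47, here lay below the highest control, 8.60. Both probe sets followed each other with r = 0.976 over the 22 arrays, a value that includes the differences between groups. It was 0.940 once group means were removed and 0.954 over the 12 oncogene and double arrays. All arrays share a normalization.

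In size, the Slc14a1 difference between oncogene and control arrays was 4.80 ± 0.94 (SE of the limma fit) on 1428114_at, a 27.8-fold ratio, and 3.86 ± 0.84 on 1448640_at, a 14.5-fold ratio. Double against Wt1-null arrays, all given Cre, differed by 3.75 ± 0.87 and 3.20 ± 0.78, or 13.5-fold and 9.18-fold. Without Wt1-null replicate 2 these became 4.80 ± 0.68 and 4.21 ± 0.56. The accession numbers fell into 3 runs, which the labels do not call batches, and no run held both Wt1-null and double arrays, so that these groups and their runs cannot be told apart within a run. With the run as a block, a fit that links the runs through the other groups, the same differences were 2.33 and 2.37. Of the control arrays, only replicate 1 shared a run with any Wt1-null array. Wt1-null against control arrays and the runs can therefore hardly be told apart, in any gene, and the interaction shares this limit. The oncogene groups with and without Wt1 gave -0.33 ± 0.87 and -0.53 ± 0.78 for double against oncogene arrays. Wt1-null against control arrays gave 0.72 ± 0.94 and 0.13 ± 0.84, and -0.34 ± 0.72 and -0.89 ± 0.60 without Wt1-null replicate 2. The difference of the oncogene effects (double minus Wt1-null, minus oncogene minus control) was -1.05 ± 1.28 and -0.66 ± 1.15, and 0.01 ± 0.96 and 0.35 ± 0.80 without that array. In order of group means, oncogene arrays stood highest, then double, Wt1-null and control arrays (control before Wt1-null arrays without Wt1-null replicate 2), and the ranges of oncogene and double arrays overlapped, as did those of Wt1-null and control arrays.

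Slc14a1 also varied within groups as few genes did. Its SD within groups was 1.57 on 1428114_at and 1.42 on 1448640_at, a rank at the 99.9th percentile among SDs with a median of 0.25. Groups accounted for 69.1% and 65% of its variance over the arrays. Much of that spread came with 1 array: the SD of the Wt1-null group on 1428114_at was 2.44, and 0.72 without replicate 2. Without that array the SDs within groups were 1.15 and 0.96 (percentiles 99.6 and 98.7), and groups accounted for 83.9% and 84.1% of the variance. Cells were measured in bulk, so more cells with the transcript and more transcript per cell cannot be told apart here or in any value below.

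Slc14a2, the neighbour of Slc14a1 in the RefSeq gene order of GRCm38.p6 with 0 genes between them, gave different readings on its 2 probe sets. On 1425250_a_at it read 4.50, 5.18, 5.02, 4.78 and 4.78 in control replicates 1 to 5 (4.85 ± 0.26, SD, n = 5). The oncogene arrays read 5.44, 5.61, 6.02, 5.12 and 5.61 in replicates 1, 3, 4, 5 and 6 (5.56 ± 0.33, SD, n = 5), with only replicate 5 inside the range of the controls. The Wt1-null arrays read 4.77, 5.24, 4.87, 5.04 and 4.85 (4.95 ± 0.19, SD, n = 5), and the double arrays ran from 4.92 over 5.72 to 6.11 (5.54 ± 0.46, SD, n = 7). The double arrays were split, with 4 of 7 above every control and Wt1-null array and 3 among them. With a mean at the 25.3th percentile, this probe set lay not far above the floor.

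The Slc14a2 difference on 1425250_a_at was 0.71 ± 0.21 (SE) for oncogene against control arrays and did not pass, with an unadjusted p of 0.00281 and a limma adjusted p of 0.0932 over all 34945 probe sets. For double against Wt1-null arrays it was 0.59 ± 0.19 (adjusted p = 0.172), and 0.66 ± 0.21 (adjusted p = 0.0718) without Wt1-null replicate 2. With the run of accessions as a block it was 0.28 (adjusted p = 0.953), and over all alternatives run it lay between 0.28 and 0.72, with adjusted p from 0.0637 to 0.953. It was 0.10 ± 0.21 for Wt1-null against control (0.03 ± 0.22 without Wt1-null replicate 2) and -0.02 ± 0.19 for double against oncogene arrays. With arrays weighted by their quality the oncogene difference was 0.58 ± 0.19 and passed (adjusted p = 0.0424), in a fit that called 6193 probe sets, 17.7% of all. Over all alternatives run the oncogene difference ranged from 0.58 to 0.82 and its adjusted p from 0.0424 to 0.252.

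The other Slc14a2 probe set, 1426109_a_at, at the 59.2th percentile, did not separate the groups. Control arrays averaged 7.62 ± 0.29 (SD, n = 5), oncogene arrays 7.73 ± 0.38 (SD, n = 5), Wt1-null arrays 7.49 ± 0.17 (SD, n = 5) and double arrays 7.69 ± 0.30 (SD, n = 7). The difference of oncogene from control arrays was 0.11 ± 0.18 (adjusted p = 0.835, 95% interval -0.27 to 0.49). Both Slc14a2 probe sets correlated with r = 0.480 over the 22 arrays. Against Slc14a1 on 1428114_at, Slc14a2 on 1425250_a_at had r = 0.693 over all arrays and 0.238 once group means were removed, so most of that likeness lay between groups. With Wt1-null replicate 2 left out these were 0.708 and 0.122.

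Ass1, argininosuccinate synthase, which joins citrulline to aspartate, read near the floor on its only single-gene probe set, 1459937_at (12th percentile). Control arrays averaged 4.56 ± 0.12 (SD, n = 5), oncogene arrays 4.62 ± 0.35 (SD, n = 5), Wt1-null arrays 4.35 ± 0.24 (SD, n = 5) and double arrays 4.58 ± 0.43 (SD, n = 7). The highest values were 5.21 in oncogene replicate 4 and 5.38 in double replicate 4, the arrays least like the rest. The difference of oncogene from control arrays was 0.06 ± 0.20 (adjusted p = 0.930) and that of Wt1-null from control arrays -0.22 ± 0.20 (adjusted p = 0.692), or -0.26 ± 0.21 without Wt1-null replicate 2.

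Asl, argininosuccinate lyase, which releases arginine, was well expressed, at the 82.8th percentile. It read 9.61, 10.32, 10.08, 9.87 and 9.92 in control replicates 1 to 5 (9.96 ± 0.26, SD, n = 5) and 9.73, 9.83, 10.59, 8.80 and 9.12 in oncogene replicates 1, 3, 4, 5 and 6 (9.61 ± 0.69, SD, n = 5). The oncogene arrays thus reached both above and below the controls. Wt1-null arrays read 10.01, 9.47, 9.53, 9.58 and 8.87 in replicates 1 to 5 (9.49 ± 0.41, SD, n = 5), with 4 of 5 below every control, and double arrays ran from 9.33 over 9.65 to 10.73 (9.83 ± 0.53, SD, n = 7).

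No comparison of Asl passed with arrays weighted alike. Oncogene against control arrays differed by -0.35 ± 0.30 (adjusted p = 0.646) and Wt1-null against control arrays by -0.47 ± 0.30 (adjusted p = 0.557), or -0.46 ± 0.33 without Wt1-null replicate 2. With array weights the first of these was -0.69 ± 0.21 and passed (adjusted p = 0.0251). That fit called 2 of the 11 member probe sets besides Slc14a1, this one and Slc14a2, where it called 17.7% of all probe sets, so the members' share was near that of the whole array. Asl and Ass1 moved together over the 22 arrays (r = 0.721, Spearman's rho 0.596), and less so over the 20 arrays without oncogene replicate 4 and double replicate 4 (r = 0.506, rho 0.462). Both genes had their highest values on those 2 arrays.

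Arg1, the cytosolic arginase of liver and of alternatively activated macrophages, read low, at the 16.3th percentile. Its level was 4.85, 5.11, 4.77, 4.61 and 4.78 in control replicates 1 to 5 and 4.75, 4.37, 4.82, 4.49 and 4.47 in oncogene replicates 1, 3, 4, 5 and 6. The Wt1-null arrays lay between 4.51 and 5.03, and the double arrays between 4.54 and 5.63 with a median of 4.77. All groups overlapped, and only double replicate 5, at 5.63, stood out. The difference of oncogene from control arrays was -0.24 ± 0.16 (adjusted p = 0.532) and that of double from oncogene arrays 0.27 ± 0.15 (adjusted p = 0.9999).

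Arg2, the mitochondrial arginase, lay nearer still to the floor. On 1418847_at (11.6th percentile) it read 4.16, 4.47, 4.33, 4.16 and 4.40 in control replicates 1 to 5, and the double arrays ran from 4.48 over 4.64 to 4.95. The lowest double array, at 4.48, lay next to the highest control array, at 4.47, and the design's comparisons do not set these groups against each other. Oncogene and Wt1-null arrays were in between, at 4.26 to 4.79 and 4.30 to 4.87, and groups accounted for 40.8% of the variance. Both differed from the control by about the same amount, 0.19 ± 0.12 (adjusted p = 0.479) and 0.21 ± 0.12 (adjusted p = 0.498), the latter 0.12 ± 0.11 without Wt1-null replicate 2. On 1438841_s_at Arg2 read 3.64 to 4.20 over all arrays, inside the range of the floor or a little below it, and the probe sets had r = 0.038.

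Nos2, the inducible nitric oxide synthase of activated macrophages, was the member with the least difference between groups, which accounted for 3.3% of its variance. Control arrays averaged 5.88 ± 0.29 (SD, n = 5), oncogene arrays 5.97 ± 0.16 (SD, n = 5), Wt1-null arrays 5.89 ± 0.06 (SD, n = 5) and double arrays 5.92 ± 0.21 (SD, n = 7), at the 36.5th percentile. Control replicate 1 was lowest, at 5.38, and the other control arrays lay between 5.94 and 6.10. The difference of oncogene from control arrays was 0.09 ± 0.13 (adjusted p = 0.808, 95% interval -0.18 to 0.35). Macrophage markers (Ptprc, Cd68, Adgre1, Csf1r, Lyz2, Itgam and Aif1) averaged 5.54 to 5.99 over the arrays, and 0 of 7 were called in any comparison over all arrays. Without Wt1-null replicate 2, Cd68 was called in double against Wt1-null arrays (0.78 ± 0.21, adjusted p = 0.0410). The other macrophage markers in that fit ran from -0.07 to 0.24 and were not called.

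Odc1, the enzyme that commits ornithine to polyamines, was abundant on all its probe sets, at percentiles 82, 96.9 and 97.7. On 1438761_a_at it read 12.42, 12.66, 12.34, 12.05 and 11.60 in control replicates 1 to 5 and 12.00, 13.42, 12.66, 12.30 and 12.14 in oncogene replicates 1, 3, 4, 5 and 6. Wt1-null arrays read 12.21, 11.71, 12.59, 12.62 and 12.35, and double arrays ran from 11.74 over 12.26 to 13.02. The groups overlapped throughout, and oncogene replicate 3 was the highest array. The differences of oncogene from control arrays were 0.28 ± 0.43 on 1427364_a_at, 0.21 ± 0.25 on 1437711_x_at and 0.29 ± 0.29 on 1438761_a_at (adjusted p = 0.817, 0.756 and 0.707).

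The probe sets of Odc1 followed one another, with r = 0.756, 0.940 and 0.864, so the variation within groups was shared between them. Its SD within groups was 0.71, 0.41 and 0.49 in the same order, and groups accounted for 3.8% to 5.4% of its variance. After removal of group means, Odc1 tended to be lower on arrays where Slc14a1 was higher, with r from -0.418 to -0.657 over the pairs of probe sets (22 arrays), and from -0.395 to -0.578 without Wt1-null replicate 2. Levels with group means kept gave r from -0.091 to -0.283. All these values describe the same pair of genes, whose probe sets repeat each other, and the relation was not tested.

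**Figure D2:**
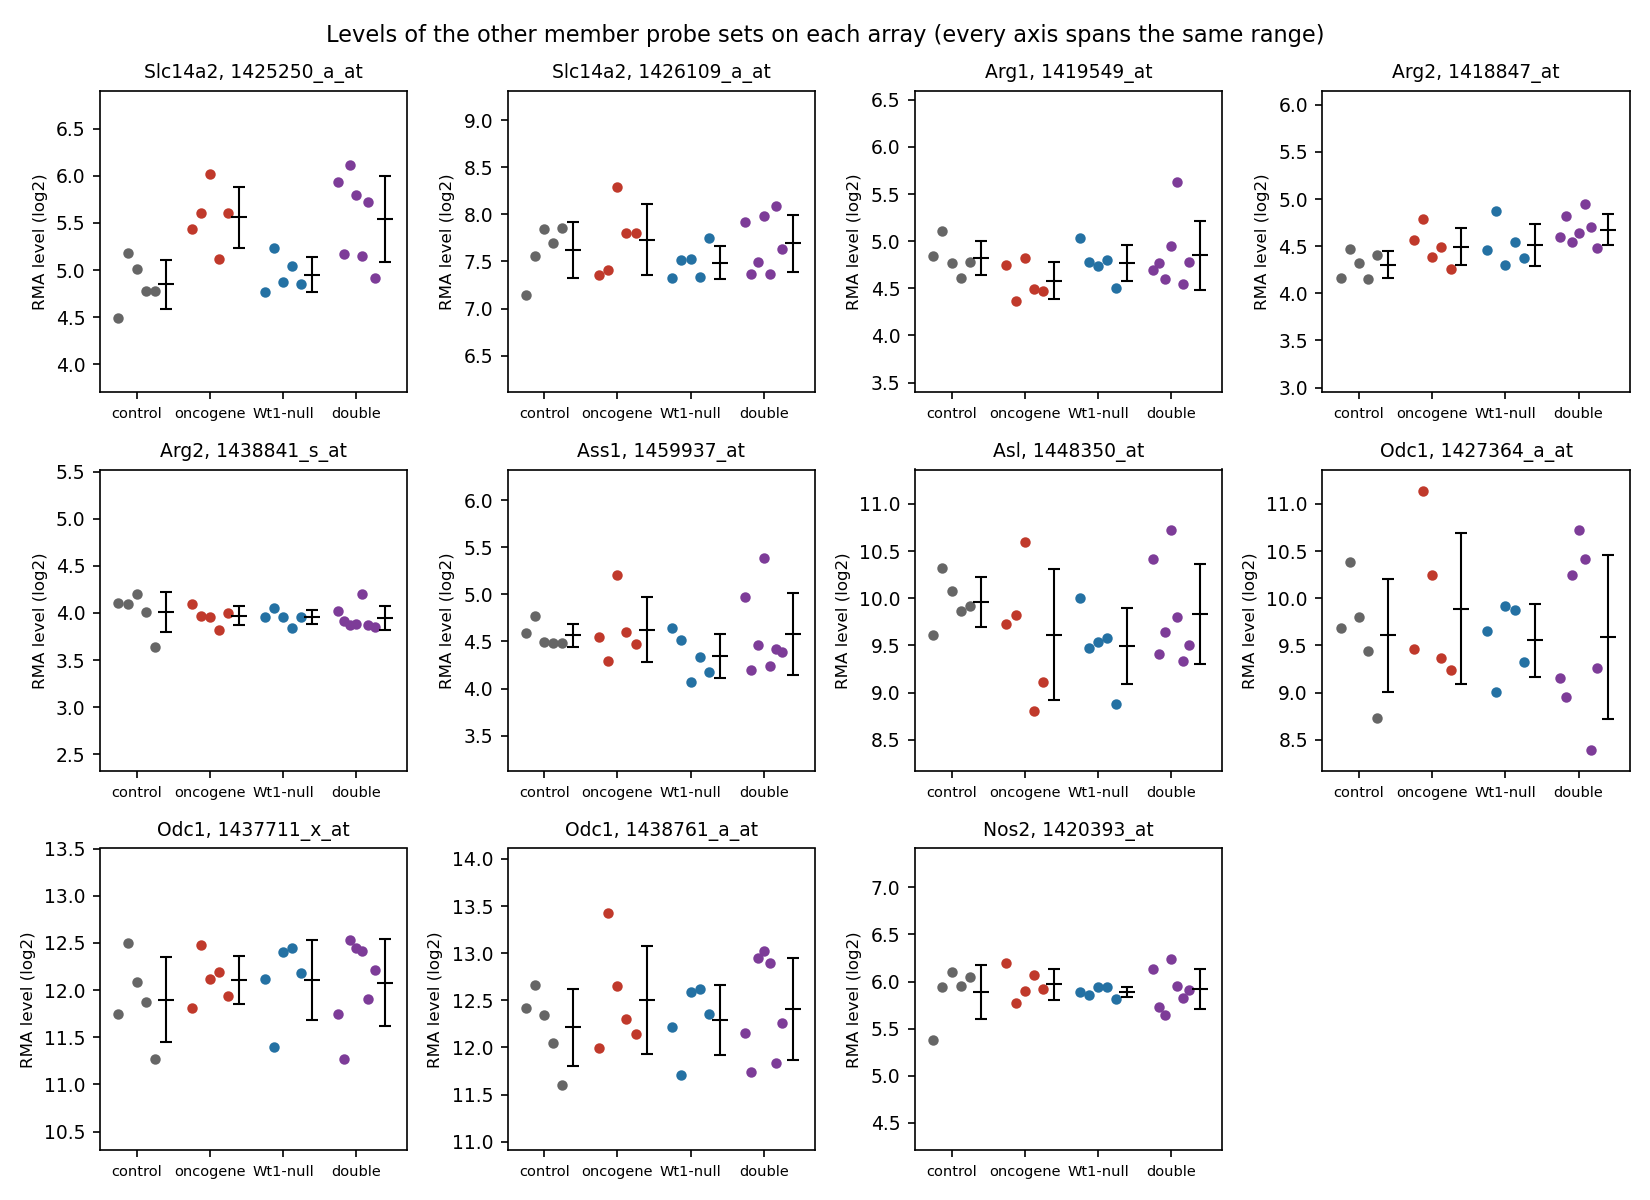
Log2 RMA levels of the 11 probe sets other than those of Slc14a1 on each array (y axis) by group (x axis), with mean and SD beside the points; every panel spans the same number of log2 units. In every comparison made, the groups overlap in all panels. Slc14a2 on 1425250_a_at shows oncogene arrays at 5.12 to 6.02 and control arrays at 4.50 to 5.18, which overlap through oncogene replicate 5. For Arg2 on 1418847_at the double arrays start at 4.48, just above the highest control array at 4.47, and those groups were not compared.

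Counted together, 0 of the 11 probe sets other than those of Slc14a1 were called in oncogene against control arrays by limma (adjusted p below 0.05), where 1.51% of all probe sets were called. Of the 11, 8 were above and 3 below the control, with a median difference of 0.11 against -0.03 over all probe sets, and 1 had an unadjusted p below 0.05. In Wt1-null against control arrays 0 of 11 were called, against 0.0601% of all probe sets, and 0 had an unadjusted p below 0.05. The 11 split into 5 above and 6 below, with a median of -0.05. This comparison uses the same control arrays as the first. Its groups shared a run of accessions only through control replicate 1, so the groups and the runs can hardly be told apart. Without Wt1-null replicate 2 the share over all probe sets was 0.0315%, with 0 of 11 called, 6 above and 5 below.

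Between groups that had all received Cre, the counts were also 0. In double against oncogene arrays 0 of 11 were called and 0% of all probe sets, with 3 members above and 8 below and none at an unadjusted p below 0.05 (1103 of all probe sets were). In double against Wt1-null arrays 0 of 11 were called, against 0.00572% of all probe sets, with 9 above and 2 below, a median of 0.11 and 1 (Slc14a2 on 1425250_a_at) at an unadjusted p below 0.05. Without Wt1-null replicate 2, 4.81% of all probe sets were called in that comparison and 0 of the 11, with 8 above and 3 below. The interaction called 0 of 11, against 0.0114% of all probe sets, and its largest value among them was the 0.69 ± 0.41 of Asl (adjusted p = 0.671), or 0.68 ± 0.44 without Wt1-null replicate 2. Because percent called was so low in most of these comparisons, a count of 0 in 11 does not set the members apart.

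**Figure D3:**
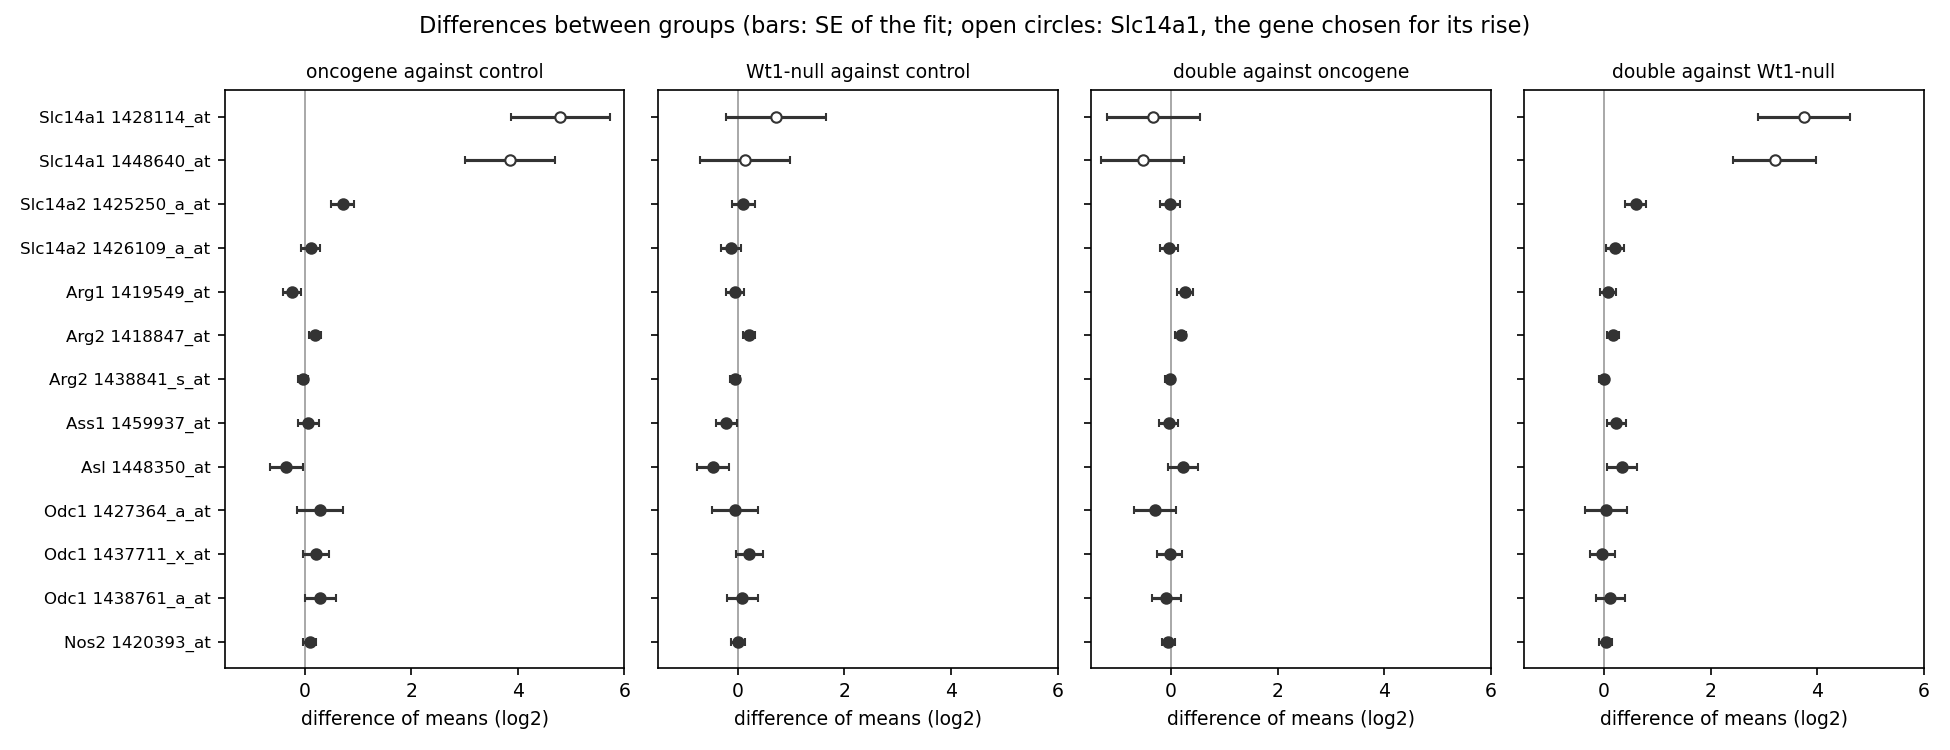
Difference of group means (x axis, log2) with its SE for each member probe set (y axis) in the 4 comparisons between groups; open circles mark Slc14a1, the gene chosen for its level with the oncogene. The Slc14a1 values of 4.80 and 3.86 in the first panel and 3.75 and 3.20 in the last stand beside 11 other values that reach at most 0.71.

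The wider pathway was described by 56 further genes in 6 groups, each gene represented by the highest of its probe sets on average, and 50 were measured. In oncogene against control arrays 15 were above and 35 below the control, with 0 called higher, 1 called lower and a median of -0.07 (all probe sets -0.03). That 1 of 50 is 2% beside the 1.51% called over all probe sets, a share near the background. The called gene was Slc7a3, a transporter of arginine and other cationic amino acids. Slc7a3 read 7.83, 7.37, 6.86, 6.61 and 6.74 in control replicates 1 to 5 and 5.74, 6.12, 6.00, 6.46 and 6.05 in oncogene replicates 1, 3, 4, 5 and 6. It fell by 1.01 (adjusted p = 0.0242 by limma), with no overlap between the groups. The call was lost in 7 of 35 alternatives: without control replicate 2 (-0.94, adjusted p = 0.0787) or 3 (-1.06, 0.051), without oncogene replicate 3, 4 or 6 (adjusted p = 0.052, 0.0527 and 0.0532), with the replicate number as a block (adjusted p = 0.064) and within the arrays of 1 run of accessions (-0.74, 0.0573).

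Slc7a3 was also low in the other Cre-treated groups, with Wt1-null arrays at 5.95 ± 0.43 (SD, n = 5) and double arrays at 5.81 ± 0.23 (SD, n = 7), and the difference of Wt1-null from control arrays was -1.13 (adjusted p = 0.0611), and -1.05 (adjusted p = 0.138) without Wt1-null replicate 2. Wt1-null and control arrays shared a run of accessions only through control replicate 1. Other carriers on the list of arginine and cationic amino acid transport did not pass. Slc3a2, the heavy chain that several amino acid transporters need at the cell surface, averaged 12.12 in control, 11.33 in oncogene, 11.46 in Wt1-null and 11.39 in double arrays, a difference of -0.79 between oncogene and control arrays (adjusted p = 0.0608). Slc7a1, the main arginine carrier of many cell types, differed by 0.18 (adjusted p = 0.867). On this list 1 of 8 genes lay above the control, 7 below, and the median was -0.21.

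Genes that turn ornithine into proline and arginine into creatine numbered 8 measured of 11 listed, with 1 above and 7 below the control, 0 called and a median of -0.15. For Aldh18a1, which opens proline and ornithine synthesis from glutamate, control arrays averaged 12.53 ± 0.15 (SD, n = 5), oncogene arrays 11.41 ± 0.56 (SD, n = 5), Wt1-null arrays 11.47 ± 0.57 (SD, n = 5) and double arrays 11.29 ± 0.66 (SD, n = 7). On that probe set the difference of oncogene from control arrays was -1.12 and did not pass (adjusted p = 0.0872). Of its 4 other probe sets, 2 passed, at -1.30 (adjusted p = 0.0318) and -1.28 (adjusted p = 0.0373), and 2 did not, at -1.12 and -0.73. Oat, which links ornithine to proline, differed by -0.17 (adjusted p = 0.637), and Gamt, the last enzyme of creatine synthesis, by -0.43 (adjusted p = 0.587).

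The remaining groups gave 0 calls in oncogene against control arrays. The urea cycle and its mitochondrial carriers had 4 of 7 genes above the control and a median of 0.00. In control arrays Otc, ornithine transcarbamylase, read 3.90, inside the range of the floor. Cps1, carbamoyl phosphate synthetase, at 5.10 and Nags at 5.70 lay above that range. Of the polyamine genes, 13 of 16 were measured, with 6 above, 7 below and a median of -0.03. Among these Smox, which oxidises spermine, averaged 8.12, 8.59, 8.08 and 9.01 in control, oncogene, Wt1-null and double arrays, and its difference of 0.93 between double and Wt1-null arrays did not pass (adjusted p = 0.188) but did without Wt1-null replicate 2, at 1.22 (adjusted p = 0.0220).

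Genes of nitric oxide and its cofactor tetrahydrobiopterin numbered 11, with 3 above, 8 below and a median of -0.08. Gchfr, the feedback regulator of the first enzyme of cofactor synthesis, averaged 8.95, 10.17, 9.19 and 10.21 in control, oncogene, Wt1-null and double arrays. Its differences of 1.22 between oncogene and control arrays (adjusted p = 0.133) and 1.02 between double and Wt1-null arrays (adjusted p = 0.209) did not pass, and the latter was 1.33 (adjusted p = 0.0333) without Wt1-null replicate 2. The aquaporins Aqp3, Aqp7 and Aqp9, which also let urea through, averaged 5.37 to 6.02 in control arrays, and all 3 lay slightly below the control, with a median of -0.04.

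In the other comparisons 0 of the 50 pathway genes were called over all 22 arrays, where 0.0601%, 0%, 0.00572% and 0.0114% of all probe sets were, in the order of the next sentence. The split was 17 above and 33 below in Wt1-null against control arrays, 28 and 22 in double against oncogene arrays and 27 and 23 in double against Wt1-null arrays, and 36 and 14 in the interaction, with medians of -0.05, 0.02, 0.01 and 0.15. The medians over all probe sets were -0.03, 0.01, 0.01 and 0.03. Without Wt1-null replicate 2, 5 of the 50 were called in double against Wt1-null arrays, 3 higher and 2 lower, or 10% beside 4.81% of all probe sets. Those higher in double arrays were Smox, Gchfr and, at 0.62 (adjusted p = 0.0318), Oaz2, an antizyme that restrains ornithine decarboxylase. Those lower were Ddah1, which breaks down methylated arginines that inhibit nitric oxide synthases, at -0.86 (adjusted p = 0.00792, -0.65 and 0.154 over all arrays), and Slc7a6, a light chain of cationic amino acid transport, at -0.68 (adjusted p = 0.000669, -0.53 and 0.0915 over all arrays). In Wt1-null against control arrays and in the interaction 0 of 50 were called without that array, with 16 above and 34 below, and 34 and 16. These 5 calls depend on leaving out 1 array, and the array is the one nearly identical to a double array. No run of accessions held both Wt1-null and double arrays, so these calls and the runs cannot be told apart.

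**Figure D4:**
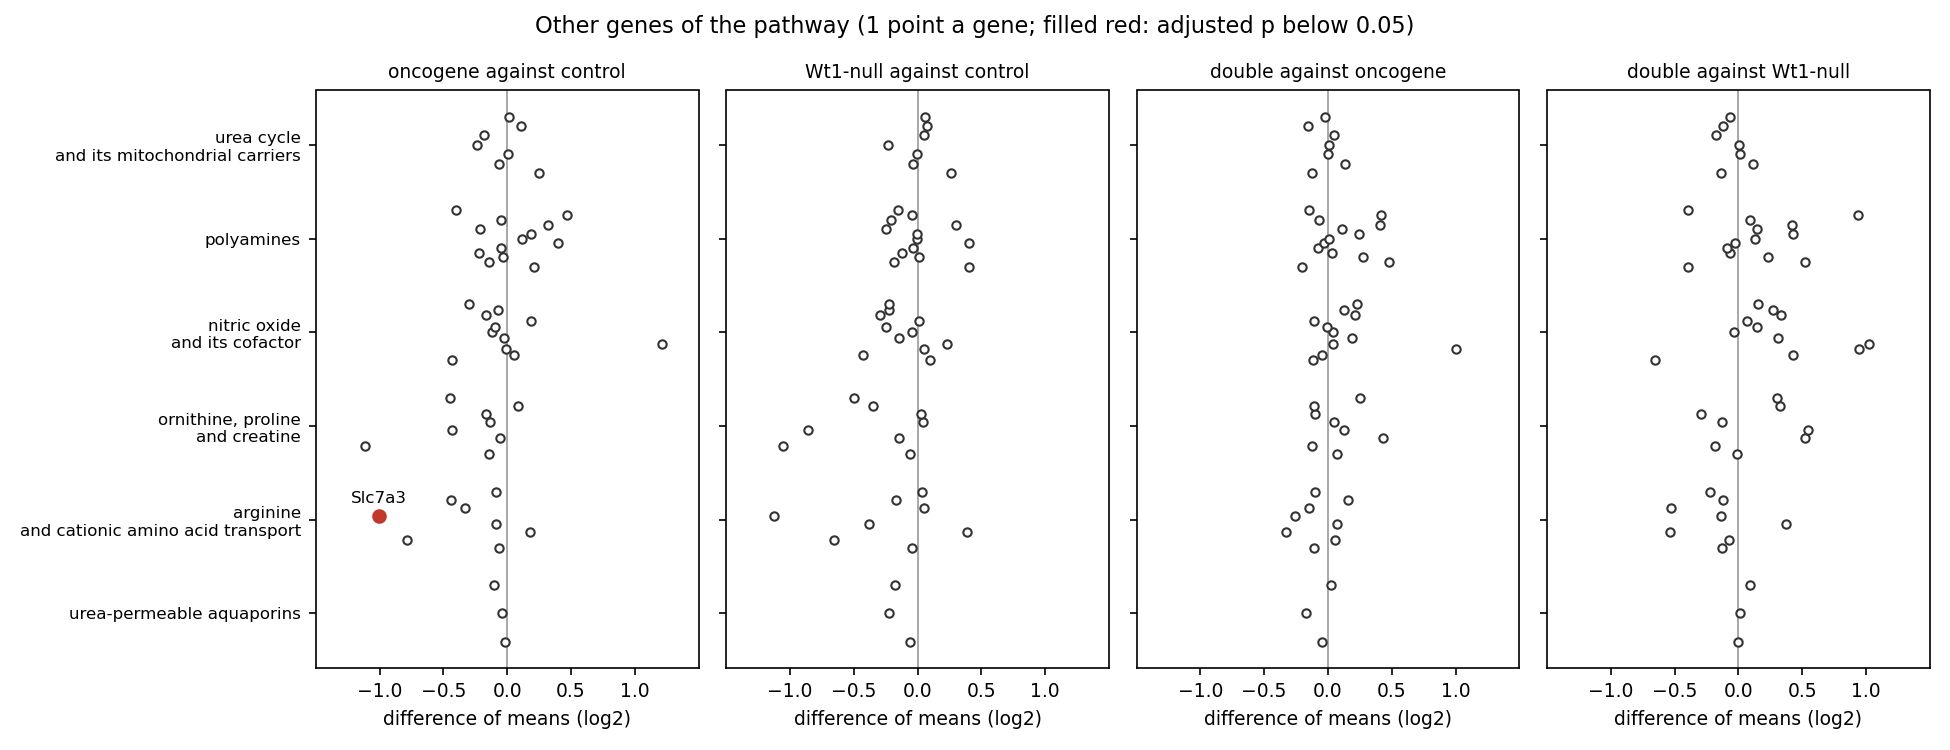
Difference of group means (x axis, log2) for each of the 50 other pathway genes, 1 point a gene, in 6 groups (y axis) and 4 comparisons; the filled red point marks an adjusted p below 0.05. Only Slc7a3 in oncogene against control arrays is filled, at -1.01, and Gchfr is the point farthest to the right in that panel, at 1.22.

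By Pearson's r with Slc14a1 (1428114_at) over the 22 arrays, the most alike of 16336 genes were Agtr2, the type 2 angiotensin receptor (0.947), Gpr85, an orphan receptor (0.926), Slc5a3, the sodium-dependent inositol transporter (0.921), Bmp2, a bone morphogenetic protein (0.912), and Arrdc3, an arrestin-like adaptor (0.910). Slc5a3, a gene induced by high salt in kidney cells, averaged 11.07 in control, 12.47 in oncogene, 11.12 in Wt1-null and 12.39 in double arrays. Agtr2 averaged 7.85 in control, 12.02 in oncogene and 8.48 in Wt1-null arrays. All 5 genes were near or above their double mean in Wt1-null replicate 2, at 13.51, 10.32, 12.75, 10.90 and 10.46 in the order given, as Slc14a1 was. That array was among the 22 used to choose these genes, so this likeness follows from the choice and is no separate support. Without Wt1-null replicate 2, and with no new ranking, r for the same genes was 0.949, 0.926, 0.918, 0.908 and 0.907. Once group means were also removed, r was 0.686, 0.681, 0.668, 0.492 and 0.551, so part of the likeness lay between groups. These r values describe a ranking over arrays that share groups.

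**Figure D5:**
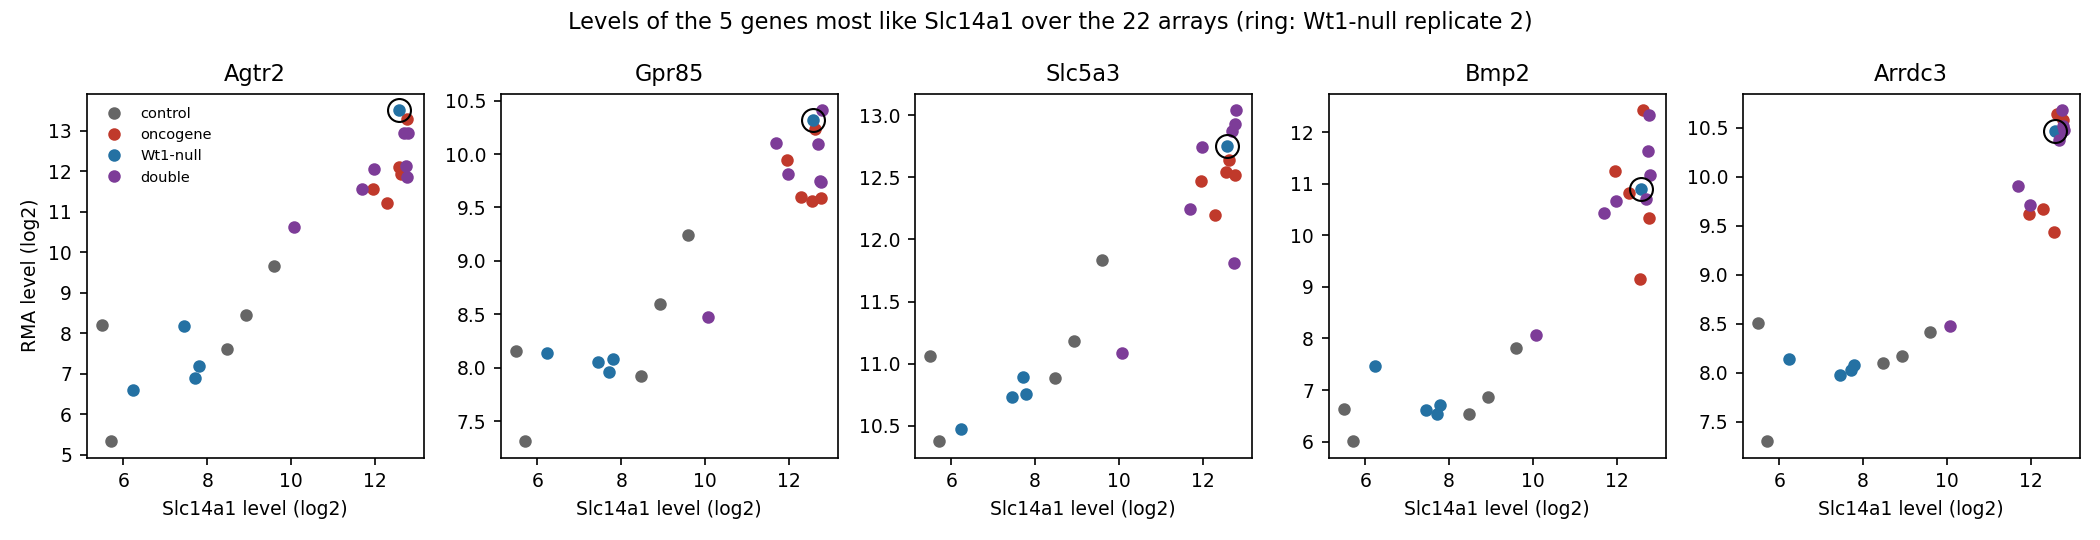
Log2 RMA level of each of the 5 genes most like Slc14a1 (y axis) against that of Slc14a1 on 1428114_at (x axis), 1 point an array, coloured by group; the ring marks Wt1-null replicate 2. The oncogene arrays gather at Slc14a1 levels of 11.96 to 12.75, and the ringed array lies at their Slc14a1 level, above all of them in the Agtr2 panel at 13.51.

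Markers of other cells that express the members were set beside these results. Erythroid markers (3 of 5 measured, from the lineage in which UT-B carries a blood group) averaged 5.18 to 5.57 in control, 5.28 to 5.69 in oncogene, 5.24 to 5.41 in Wt1-null and 5.25 to 5.81 in double arrays. Those ranges overlapped. Endothelial markers (4 of 4 measured) ran from 5.49 to 5.82 in control, from 5.72 to 6.32 in oncogene, from 5.56 to 6.09 in Wt1-null and from 5.75 to 6.26 in double arrays. Among them Tek, an angiopoietin receptor, averaged 5.51, 6.80, 6.07 and 6.80 in control, oncogene, Wt1-null and double arrays. Tek was 1.29 higher in oncogene than in control arrays (adjusted p = 0.117). It was 0.74 higher in double than in Wt1-null arrays (adjusted p = 0.375), and 1.17 higher without Wt1-null replicate 2 (adjusted p = 0.0294). The other endothelial markers, Pecam1, Cdh5 and Kdr, differed by -0.10, -0.10 and 0.11 between oncogene and control arrays. Between double and Wt1-null arrays without Wt1-null replicate 2 they differed by -0.04, -0.08 and -0.04. Astrocyte markers (4 measured, as astrocytes also express UT-B) ran from 6.43 to 6.95 in control and from 6.59 to 7.22 in oncogene arrays. They ran from 6.60 to 6.82 in Wt1-null and from 6.25 to 7.27 in double arrays. Between oncogene and control arrays the probe sets of Gfap and Aqp4 differed by -0.14 to 0.07 and those of Slc1a3 by -0.13 to 0.35. The probe sets of Slc1a3 differed by -0.60 to 0.09 between double and Wt1-null arrays. S100b was 0.86 and 1.81 higher in oncogene than in control arrays on its 2 probe sets (adjusted p = 0.208 and 0.107) and 0.63 and 0.84 higher in double than in Wt1-null arrays. Hepatocyte markers ran from 5.89 to 6.43, epithelial and urothelial markers from 5.99 to 6.74 and cartilage markers from 6.94 to 9.36 over all arrays. No marker was called in any of the 5 comparisons over all arrays. Without Wt1-null replicate 2, 3 of 37 were called in double against Wt1-null arrays, Tek, Cd68 and Acan of cartilage (the last -1.05, adjusted p = 0.0236), beside 4.81% of all probe sets. Of the other cartilage markers in that fit, Col2a1 was at -1.49, Comp at -0.76 and Sox9 at 0.45, none called. No run of accessions held both groups, so these calls and the runs cannot be told apart. The part of endothelial or astrocyte cells in the Slc14a1 levels was not tested.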

How the data were processed

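The deposited log2 values came from RMA in the authors' copy of Affymetrix Expression Console, as the submitters' processing notes name it, in a version not given in the sources used here. RMA gives every array the same distribution of values and compresses differences near the floor. Array medians ran from 6.23 to 6.33. The oncogene is not reported here by name. The design text names 6 oncogene samples, of which 5 were used here. Of 45101 probe sets, 34945 named 1 gene in the platform annotation, 932 several and 9160 none, and 64 were controls. Of those with 1 gene, 34741 matched RefSeq GRCm38.p6 by gene ID. The array values have no genome build.

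Group means of all 22 arrays were fitted with limma 3.58.1 in R 4.3.3 (lmFit, eBayes). P-values were adjusted by Benjamini-Hochberg over the 34945 probe sets and called below 0.05. On simulated data with 200 changed probe sets of 34945, the fit called 62% of 50 probe sets given a log2 change of 1 in oncogene against control arrays. The share was 78% for Wt1-null against control and for double against Wt1-null arrays, 72% for double against oncogene arrays and 54% for the interaction. Each share came from 1 draw. Oncogene against control and Wt1-null against control arrays had the same group sizes, changed probe sets and changes. Their 62% and 78% therefore differ only by the draw, and the shares do not rank the comparisons. Between 6 and 12 unchanged probe sets were called in each comparison. The simulated arrays were independent, so the near-identical pairs, the runs and the arrays least like the rest were not modelled. The changed probe sets were picked at random. Odc1 (SD within groups 0.41 to 0.71) and Asl (0.50) varied more than the median probe set (0.25), so these shares do not hold for them. Members, lists and tests were chosen with earlier results of these data known. The rule for named genes took all member probe sets, the 5 genes most like Slc14a1 and, of each pathway list, the called genes and those a sentence on the pathway needed.

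The alternatives were leaving out each array, array weights, other normalizations and variance models, a filter on dim probe sets, 1 probe set per gene, the mean of Wt1-null replicates 3 and 4 in place of both, oncogene and double replicate 4 left out together, a fit of only the groups compared, replicate number or accession run as a block, and, chosen after seeing the data, fits within 1 accession run and without the near-identical pair. The number of arrays limits the precision.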

Additional observations from a re-analysis of the deposited data

Results flagged for a closer look

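In 5 of 52 groups of arrays 1 member value lay far from the rest of its group, where chance flags about 1 in 20. Slc14a1 in Wt1-null replicate 2 read 12.57 on 1428114_at, with the nearest array of its group at 7.79, and 11.45 on 1448640_at, with the nearest at 7.05. Slc14a1 in double replicate 4 read 10.06 on 1428114_at, with the nearest at 11.70. Arg1 in double replicate 5 read 5.63, with the nearest at 4.95. Nos2 in control replicate 1 read 5.38, with the nearest at 5.94.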

How the results depend on the processing

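Without any 1 array, 0 to 0 of the 11 member probe sets besides Slc14a1 were called in each comparison. Array weights called 2 in oncogene against control arrays, Slc14a2 on 1425250_a_at and Asl, where it called 17.7% of all probe sets, and no other alternative run called any. The Slc14a1 differences kept their sign: 4.18 to 5.29 and 3.26 to 4.19 for oncogene against control arrays, and 2.33 to 4.80 and 2.37 to 4.21 for double against Wt1-null arrays. Over all probe sets the calls ranged from 156 to 6193 (oncogene against control), 3 to 9431 (Wt1-null against control), 0 to 0 (double against oncogene), 0 to 5626 (double against Wt1-null) and 0 to 2708 (interaction); the cause was not tested. With the replicate block 0 members were called in each comparison, and 576, 33, 0, 0 and 0 of all probe sets. Of 28 pairs of arrays with the same number, 12 had deviations correlated above 0.1 (median 0.048, range -0.449 to 0.787). The main fit did not pair the arrays by number. Between oncogene and double arrays the correlations were higher in part, at 0.120, 0.213, 0.787, -0.079 and 0.596 for replicates 1, 3, 4, 5 and 6. The labels do not say whether these arrays are paired, and a paired fit of those groups alone was not run. Fits within 1 accession run gave values for oncogene against control and double against oncogene arrays alone, and the interaction was not run in a fit of only the groups compared. Levels near the floor limit what Arg1, Arg2 and Ass1 can show.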
